A study of Mus musculus with 12 samples.

Results

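Mouse chromosome 14 was examined in 11 malignant peripheral nerve sheath tumours (MPNSTs), as the DNA level of tumour cells relative to normal Schwann cells. The probes were all those that the files place on chromosome 14 of the mm9 build, except 9 probes between positions 69793561 and 70058209, which the selection left out. This gave 1553 probes of the 42404 on the array, of which 40726 lay on autosomes. They span chr14:8670652-125091905, have a median spacing of 22.9 kb with a largest gap of 6.87 Mb, and carry 741 gene names. The chromosome had been singled out for losses. The profiles held called losses in 2 of the 11 tumours and a called gain in 1. In the other 8 the chromosome was flat and slightly below the autosomal median, by an amount that depended on the centring.

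The study compared genomic DNA of cultured MPNST cells with that of wild-type C57BL/6J Schwann cells by array comparative genomic hybridisation, in which both DNAs compete for the same 60-mer probes. The tumours came from P0-GGFβ3 mice, whose transgene drives the neuregulin-1 isoform GGFβ3 from the promoter of the myelin protein zero gene, which is active in Schwann cells. On C57BL/6J 4 of the tumours arose (B76, B86, B91 and B96), and 7 arose on the mixed background C57BL/6J x SJL/J (231 Trig, A18, A202, A292, A382, A390 and A394). Each tumour was hybridised once, except A382, whose passages 8 and 9 were averaged to 1 value. The tumour cultures were started with forskolin and NRG1β and then grown without them, whereas the reference Schwann cells stayed in both. Titles give passages 5 to 13 for 10 of the tumours, some of them beyond the limit that the growth notes set. The highest were 13 in B76 and 11 in A18, while A202 was at 6. Each tumour but A382 was read at 1 passage, so passage and tumour cannot be told apart. Ages, sexes and the number of mice behind the reference were not given in the sources used here.

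Values are log2 of tumour over reference signal, set to 0 at the median of each array's autosomal probes. A value of -1 would correspond to 1 of 2 copies in a pure diploid culture, and 0.58 to 3 of 2. Tumour DNA carried Cy5 and reference DNA Cy3 on every array, so a dye effect and a tumour effect cannot be told apart. The arrays of A18, 231 Trig, B86 and A202 shared 1 slide and were read on another scanner than the rest. On chromosome 14, 1520 to 1553 of the probes were measured per tumour, no spot on the arrays was saturated, and the noise between neighbouring autosomal probes was 0.180 to 0.246 (SD, log2). The precision of all values is limited by how many arrays there are.

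MPNSTs are aggressive sarcomas of the Schwann cell lineage, and their genomes typically carry many gains and losses of whole chromosomes or large parts of them. A deletion matters for a tumour mainly through the genes it removes, and chromosome 14 holds several that restrain growth. Among them are Rb1, which keeps cells from entering S phase, Bap1, a deubiquitinase acting on chromatin, and Lats2, a kinase of the Hippo pathway.

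The 60-mer probes on both sides of the sharpest changes are given first, because they set the resolution at which a break could be placed. They are shown in lower case as the files give them, 5′ to 3′, at their mm9 positions, and no strand is stated. With the main settings, a deep loss in A18 began between the first pair of probes and ended between the second pair. Some of these edges lay at other probes under other settings, as given further on. A202 dropped between the Chmp7 probes, and B76 rose between the Kpna3 probes.
A18, last probe before the deep loss (AK029536, chr14:21215392-21215451): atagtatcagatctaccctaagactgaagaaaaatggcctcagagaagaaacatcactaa
A18, first probe in the deep loss (AK029536, chr14:21244123-21244182): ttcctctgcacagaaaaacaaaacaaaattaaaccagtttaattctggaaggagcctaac
A18, last probe in the deep loss (Adk, chr14:22200698-22200757): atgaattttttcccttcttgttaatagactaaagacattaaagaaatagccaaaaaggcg
A18, first probe after the deep loss (AK170348, chr14:22277182-22277241): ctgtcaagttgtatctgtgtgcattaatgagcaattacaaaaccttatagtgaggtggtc
A202, last probe before the distal loss (Chmp7, chr14:70119286-70119345): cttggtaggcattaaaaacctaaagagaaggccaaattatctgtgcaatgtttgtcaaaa
A202, first probe in the distal loss (Chmp7, chr14:70124041-70124100): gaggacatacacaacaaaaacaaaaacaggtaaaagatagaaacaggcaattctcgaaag
B76, last probe before the gain (Kpna3, chr14:62010630-62010689): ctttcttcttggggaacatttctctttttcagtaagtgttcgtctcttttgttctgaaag
B76, first probe in the gain (Kpna3, chr14:62044086-62044145): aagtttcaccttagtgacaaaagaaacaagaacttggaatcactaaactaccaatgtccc

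The level of the whole chromosome, taken as the median over its probes, was lowest in A18 at -0.40 and next lowest in A202 at -0.26. It was -0.12 in A390, -0.11 in A382, -0.07 in 231 Trig, -0.06 in A292 and -0.06 in A394. Among the C57BL/6J tumours it was -0.09 in B86, -0.08 in B91, -0.04 in B96 and 0.22 in B76. A18 and A202 stood below every other tumour, B76 stood above 0, and the other 8 lay within -0.12 to -0.04.

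Chromosome 14 was the lowest of the 19 autosomes in A18. In A202 it ranked 6 from the lowest, and 7 autosomes of that tumour had a median of -0.2 or lower. The 2 arrays of A382 gave -0.09 at passage 8 and -0.12 at passage 9. The signal of each colour was also read on its own, adjusted for the probes' GC content. The reference colour was near its autosomal level on chromosome 14 on all 12 arrays (-0.02 ± 0.01, SD), while the tumour colour ran from -0.45 in A18 to 0.19 in B76.

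Over the 11 tumours the chromosome averaged -0.10 ± 0.15 (SD, n = 11) and was below 0 in 10 of them. This did not pass the exact two-sided sign-flip permutation test after Benjamini-Hochberg adjustment over the 19 autosomes (p = 0.0527, adjusted p = 0.0974). Without B76 the mean was -0.13 and passed (adjusted p = 0.00618, exact sign-flip permutation test). Without A18, A202 and B76 the remaining 8 tumours averaged -0.08 ± 0.03 and also passed (adjusted p = 0.0247, exact sign-flip permutation test). These tumours were left out for their own chromosome 14 values, after those were seen, which itself narrows the spread. That pass is therefore no support for a shared lower level. Without the slide of A18 and A202 the mean was -0.04 (adjusted p = 0.506, exact sign-flip permutation test). Centring on the most frequent autosomal value of each array gave -0.07 over the 11 tumours (adjusted p = 0.305, exact sign-flip permutation test). The 8 flat tumours then ran from -0.12 in A390 to 0.0022 in B96. Chromosome 11 averaged 0.69 and was above 0 in all 11 tumours. The reference colour on chromosome 11 was itself at -0.53 ± 0.04 (SD over 12 arrays), against -0.02 on chromosome 14. The part of the reference in the 0.69 was not tested. Shares over all autosomes given below include chromosome 11. Centring without chromosome 11 gave -0.07 for chromosome 14 (adjusted p = 0.203, exact sign-flip permutation test).

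**Figure D1:**
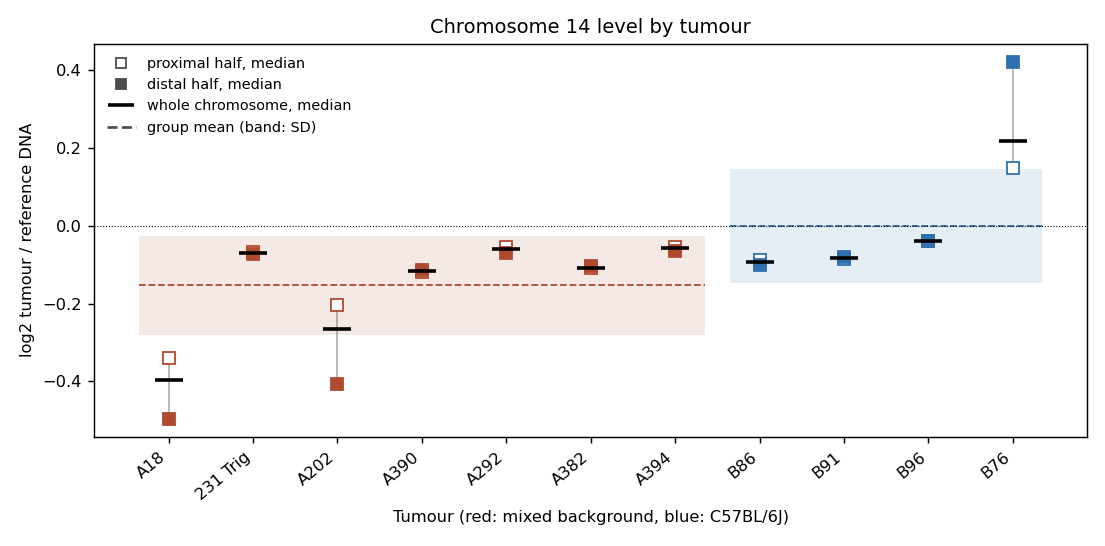
Chromosome 14 level in each tumour as log2 tumour over reference DNA, with the median of all probes (black bar) and of the probes proximal (open) and distal (filled) to the midpoint, and the mean and SD of each strain background. A18 and A202 lie lowest with distal medians below their proximal medians, B76 lies above 0, and the other 8 tumours lie within -0.12 to -0.04.

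Between the strain backgrounds, the 7 tumours on C57BL/6J x SJL/J averaged -0.15 ± 0.13 (SD) and the 4 on C57BL/6J averaged -4.1e-05 ± 0.15 (SD). The difference of -0.15 did not pass when all 330 splits of the tumours were compared (exact permutation test, two-sided, p = 0.127, adjusted p = 0.484 over the 19 autosomes). Within slides the difference was -0.15, -0.0046 and -0.15, with a mean of -0.10 (exact permutation within slides, p = 0.333, adjusted p = 0.841). The 2 tumours with losses are both on the mixed background and the tumour with a gain is on C57BL/6J, and the groups overlapped in their other members.

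The midpoint between the first and the last probe, at 66.9 Mb, divides the chromosome into 1068 proximal and 485 distal probes. The distal minus the proximal median was -0.16 in A18, -0.20 in A202 and 0.27 in B76. In the other 8 tumours it was -0.01 to 0.01. Over all 11 tumours the mean difference was -0.01 ± 0.12 (SD), which did not pass the exact sign-flip permutation test (p = 0.785, adjusted p = 0.878). Leaving out A18, A202 or their whole slide turned the sign of this mean, to 0.0043, 0.0090 and 0.04.

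To place breaks, each tumour's profile was divided into stretches of constant level (segments), and a segment was called lost at a mean of -0.2 or lower and gained at 0.2 or higher. All measured chromosome 14 probes of A18 lay in called losses, against 11.8% of its autosomal probes. In A202 59.4% of them did, against 30.7% over the autosomes. In B76 38.6% lay in called gains, against 32.4% over the autosomes. No chromosome 14 probe of the other 8 tumours lay in a called segment. Over the autosomes, called losses took 15.8% of the probes in A390, 9.08% in A382, 6.9% in 231 Trig, 1.39% in B91, 0.187% in A394, 0.115% in B96, 0.0446% in B86 and 0.0418% in A292, and called gains took 11.6% to 27%. B76 had called losses at 7.96% of its autosomal probes and 0 on chromosome 14. The share lost averaged 14.5% ± 33.5 (SD, n = 11) and came from A18 and A202 alone, so it was 5.94% without A18, 10.0% without A202 and 0% without both. It also moved with the threshold, to 7.86% at 0.3, where the segments of A18 beside its deep loss and the proximal segment of A202 no longer counted, and to 45.5% at 0.1. These 2 tumours share a slide and a scanner with 231 Trig and B86, whose chromosome 14 had no called loss, and the part of the scanner was not tested.

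**Figure D2:**
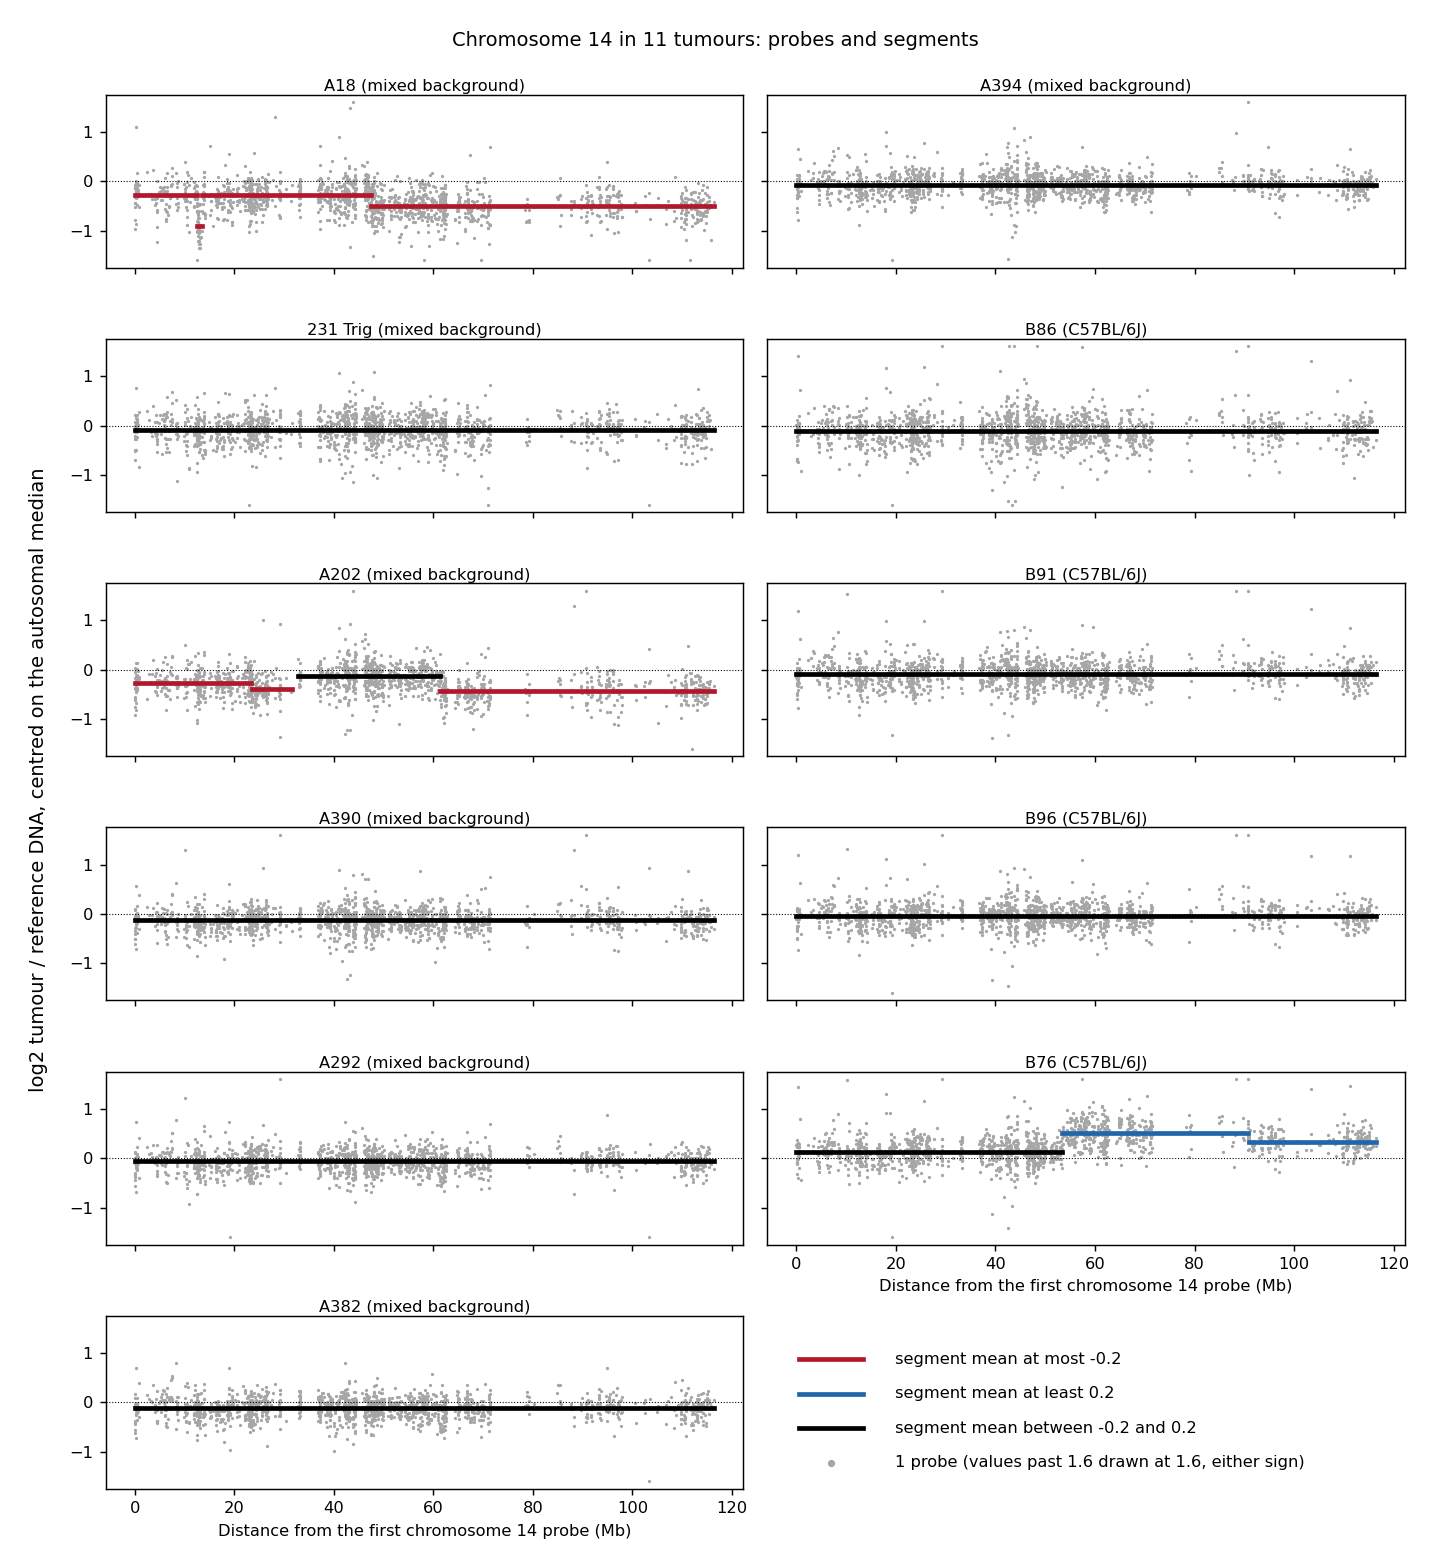
Log2 ratio of each chromosome 14 probe (grey points) against its distance from the first probe in Mb, 1 panel per tumour, with segment means in red (lost), blue (gained) or black (neither). A18 is low along its whole length with a short deeper step, A202 is low on both sides of a higher middle, B76 is raised over its distal part, and the other 8 panels are flat.

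In A18 the chromosome fell into 4 segments, all of them lost. The first, chr14:8670652-21215451, had a mean of -0.27 over 142 probes. The second, chr14:21244123-22200757, was 0.957 Mb long and had a mean of -0.91 over 39 probes. The third, chr14:22277182-56138893, returned to -0.28 over 605 probes. The fourth, chr14:56161457-125091905, had a mean of -0.50 over 743 probes. The segments on both sides of the deep loss thus had nearly the same mean, and the distal 68.9 Mb lay lower than both.

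The deep loss of A18 was the shortest called segment and the lowest on the chromosome in any tumour. Its 39 probes were all below 0 in A18, and in 36 of them A18 was lower than every other tumour. The median over the stretch was -0.92 in A18, -0.31 in A202, -0.21 in 231 Trig and 0.08 in B76. It was -0.24 in B91, -0.18 in A382, -0.17 in B86, -0.16 in A390, -0.16 in A394, -0.15 in A292 and -0.14 in B96. A18 stood alone below the others here, by -0.60 against its own flanking probes (50 on each side) compared with -0.09 to 0.03 in the other 10 tumours. The reference colour was 0.21 ± 0.06 (SD over 12 arrays) in the stretch and 0.13 in its flanks.

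The stretch carries 18 names, and in 17 of them A18 had the lowest value of the 11 tumours. From the proximal end these were AK029536, Anxa7, AK014794, Ppp3cb, Usp54, Synpo2l, Sec24c, Fut11, Chchd1, Zswim8, Ndst2, Camk2g, AK170348, Plau, Vcl, Ap3m1 and Adk. Myoz1, with a single probe, was the exception at -0.28 against a lowest value of -0.32 elsewhere. Names that start with AK are cDNA accessions with no symbol in the files.

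Several products of the stretch act at the cell surface and the cytoskeleton. Vcl encodes vinculin, which ties cell adhesions to actin, and was -1.10 in A18 against -0.49 to -0.06 elsewhere. Plau encodes the urokinase plasminogen activator, a secreted protease, and was -0.48 against -0.33 to -0.13 on its single probe. Anxa7, a calcium-dependent membrane-binding annexin, was -1.27 against -0.67 to -0.27.
Others act in signalling, transport and metabolism. Camk2g, a calcium and calmodulin dependent kinase, was -1.08 in A18 against -0.49 to -0.10, and Ppp3cb, a catalytic subunit of calcineurin, was -0.83 against -0.49 to 0.05. Sec24c, a coat component of vesicles leaving the endoplasmic reticulum, was -1.08 against -0.49 to -0.05. Ap3m1, a subunit of the AP-3 adaptor, was -1.18 against -0.41 to 0.06. Adk, which phosphorylates adenosine, was -1.07 against -0.37 to 0.33. For Vcl, Anxa7, Camk2g, Ppp3cb, Sec24c, Ap3m1 and Adk the value of A18 lay outside the range of the other 10 tumours by more than 0.3.

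**Figure D3:**
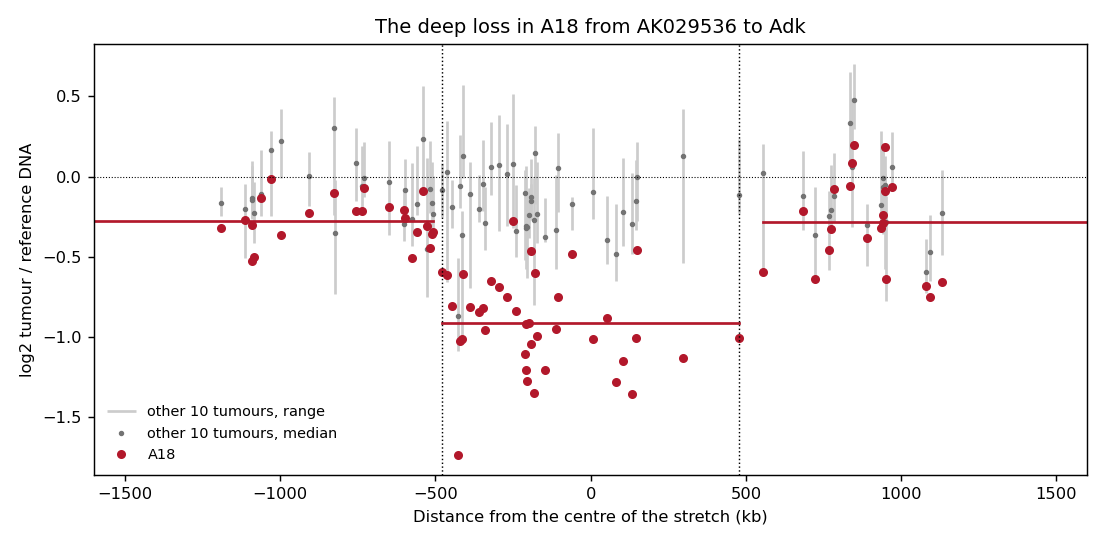
Probe values of A18 (red) around its deep loss, against the distance in kb from the centre of the stretch, with the range and median of the other 10 tumours in grey and dotted lines at the first and last probe of the stretch. Red lines mark the segment means of A18, -0.27, -0.91 and -0.28.

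The start of this loss had the narrowest interval of the 8 breaks on the chromosome. It lay between the AK029536 probes printed above, which are 28.7 kb apart, and positions over 59.9 kb described the profile nearly as well (within 3.84 noise variances of the best position). With GC adjustment, with another background correction (normexp) and with loess the deep loss began at 21275333 instead, the far end of that interval. The end lay between the Adk and AK170348 probes, 76.4 kb apart, with an interval of 206 kb. The first probe after the end was itself at -0.59 in A18. Its remaining break, between Nrl and Pck2 at 56138893 and 56161457, had an interval of 588 kb. The size of the change was -0.64 at the start of the deep loss, 0.63 at its end and -0.22 between Nrl and Pck2.

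A202 also had 4 segments, but with a higher middle. The proximal loss, chr14:8670652-32163049, had a mean of -0.26 over 367 probes. It deepened to -0.40 over 120 probes at chr14:32182401-40393756. The following segment, chr14:41604016-70119345, had a mean of -0.13 over 617 probes and was not called. From chr14:70124041 to 125091905 the mean was -0.43 over 416 probes.
In 5-Mb windows with at least 20 probes, 13 of 19 were at -0.2 or lower in A202, with extremes of -0.48 and -0.11. In A18 18 of 19 windows were that low, with extremes of -0.57 and -0.19.

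The breaks of A202 were less sharp than the deep loss of A18, with changes of -0.14, 0.26 and -0.29. The first lay within Capn7, with an interval of 325 kb. This break depended on the setting. It was absent with another background correction (normexp), with loess and at a break penalty above 40. There chr14:8670652-40393756 was 1 lost segment of A202, with means of -0.28, -0.28 and -0.29. The second fell in a stretch with few probes, between 40393756 and 41604016, with an interval of 2460 kb. The third lay between the Chmp7 probes printed above, which are 4.70 kb apart, with an interval of 110 kb. Chmp7 encodes a subunit of the ESCRT-III complex, which seals membranes, and its probes were -0.24 before and -0.60 after the break in A202. The median of the other tumours at the same probes was -0.02 and -0.44, so a contrast of that size was also present in tumours without a break there.

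The 8.21 Mb segment of A202 from Capn7 to Nrg3, whose start at Capn7 depended on the setting, held 66 names. Its median was -0.42 in A202 and -0.32 in A18, and from -0.10 to 0.14 in the other 9 tumours. Against its flanks the stretch was lower by -0.24 in A202 and differed by -0.08 to 0.06 in the other 10. Bmpr1a, a receptor for bone morphogenetic proteins, was -0.67 in A202, -0.23 in A18 and -0.09 in B76, with -0.43 to 0.05 in the 8 tumours of 1 segment. Ghitm, which encodes a mitochondrial inner membrane protein, was -1.09 in A202 and -0.73 in A18, and -0.47 to -0.21 in those 8. Both genes were lowest in A202. Nrg3, a ligand of the ErbB4 receptor and a relative of the neuregulin made by the transgene, was -0.31 in A202, -0.27 in A18 and -0.08 in B76, with -0.24 to 0.02 in the 8 tumours. Its values in A202 and A18 lay only just below those of tumours without a loss.

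B76 was the tumour with a gain. Its first segment, chr14:8670652-62010689, had a mean of 0.12 over 954 probes and was not called. The second, chr14:62044086-99504495, had a mean of 0.51 over 396 probes, and the third, chr14:99579354-125091905, had a mean of 0.34 over 203 probes. The first break lay within Kpna3, which encodes an importin that carries proteins into the nucleus, and had an interval of 194 kb. The second lay within Pibf1, with an interval from 99444504 to 100273239 and a change of -0.17 against 0.39 at the first.

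Some of these breaks moved when tumours were set against each other. That setting takes out the shared probe pattern described further on, together with the other tumours' own level. Which of them moved the breaks was not tested. When each tumour was set against the probe-wise median of the others, all 8 breaks were found again, but the second of B76 lay between 87953535 and 88864819. The third of A18 lay between 56516096 and 56518110 and the third of A202 between 70232795 and 70268901, both past the intervals given above. The deep loss of A18 then ended 1 probe later and had a mean of -0.74, and the proximal segment of A202 had a mean of -0.16 and was no longer called.

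No 2 of the 8 break intervals overlapped between tumours. The distal end of the chromosome, beyond the Chmp7 break of A202, was the longest region where A18 and A202 were both lost, and it is also where B76 was gained. In that region Rb1 was -0.58 in A18, -0.61 in A202 and 0.59 in B76, and -0.27 to 0.14 in the other 8 tumours. Rb1 thus lay outside the range of the 8 tumours in all 3.

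That distal region and the Kpna3 break also frame a pair of microRNA clusters. MicroRNAs are short RNAs that repress mRNAs through their seed, bases 2 to 8. The first cluster holds Mir15a and Mir16-1, whose loss is known in human B-cell leukaemia, and the second holds Mir17 to Mir92-1, a cluster that promotes growth. RefSeq (GRCm38.p6) lists 51 mature microRNAs on chromosome 14. In its gene order the first cluster lies between the measured genes Trim13 and Dleu7 and the second between Slitrk5 and Gpc5. Mature sequences are given with the seed in capitals, to show which members share one.
miR-15a-5p: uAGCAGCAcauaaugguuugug
miR-16-5p: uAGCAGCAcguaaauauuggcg
miR-17-5p: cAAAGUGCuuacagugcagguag
miR-20a-5p: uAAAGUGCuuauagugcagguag
miR-18a-5p: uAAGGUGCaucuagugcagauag
miR-19a-3p: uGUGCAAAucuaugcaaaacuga
miR-19b-3p: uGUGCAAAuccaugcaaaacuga
miR-92a-3p: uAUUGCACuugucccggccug

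miR-15a-5p and miR-16-5p share a seed, as do miR-17-5p and miR-20a-5p, and miR-19a-3p and miR-19b-3p. The segment holding both neighbours of the Mir15a cluster had a mean of -0.50 in A18, -0.13 in A202 and 0.51 in B76. The segment holding both neighbours of the Mir17 cluster had a mean of -0.50 in A18, -0.43 in A202 and 0.34 in B76. A202 thus lost the second cluster's surroundings but had no called loss around the first. These are DNA levels of the surrounding segment, and no microRNA was measured.

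In the other 8 tumours chromosome 14 was 1 segment, with means from -0.13 to -0.04. Smaller departures appeared in several of them when the penalty for a break was lowered from 40 to 20 noise variances. They were chosen after the values were seen and are described without a test. One that was low enough to be called a loss lay in A394. It was chr14:52615820-52948386, with a mean of -0.24 over 23 probes, among them those of the chromatin remodeller gene Chd8 and the RNA methyltransferase gene Mettl3. Its median was -0.19 in A394 and -0.44 to -0.02 in the others, so it was not low in 1 tumour only. The clearest raised departure was a stretch at chr14:52990476-54874808, which holds olfactory receptor genes, the T-cell receptor alpha and delta locus, where T cells cut and rejoin their DNA, and Dad1. It became a segment of its own in B86, A390, B91, B76 and A394. Its 22 probes had a median above that of the flanking probes in all 11 tumours, by 0.15 to 0.33 (mean 0.25 ± 0.05, SD). The median itself was 0.36 in B76, 0.22 in B86, 0.20 in A394, 0.18 in B96, 0.17 in 231 Trig and 0.17 in A390. It was 0.15 in B91, 0.12 in A292, 0.07 in A202, -0.0028 in A382 and -0.04 in A18. Even the 2 tumours with losses lay near 0 here, while their flanks lay at -0.30 in A18 and -0.15 in A202.

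The reference colour was -0.11 ± 0.05 (SD over 12 arrays) in that stretch and -0.05 in its flanks. The tumour colour averaged 0.15 against -0.18. At the 6 probes named for the T-cell receptor (AK131826) the ratio lay above the flanks by 0.15 ± 0.07 (SD), from 0.04 to 0.29. That is less than the mean of 0.25 for the whole stretch. The reference colour at these 6 probes was -0.17 ± 0.07 and -0.08 in the flanks. T cells in either culture would lower this locus, and their part in the result was not tested. The probes' median GC content was 36.7% in the stretch and 36.7% in its flanks.

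A second raised stretch, chr14:87953476-99444040, covers 11491 kb with 23 probes and 6 names, among them the protocadherin gene Pcdh9, Klhl1 and the transcription factor gene Dach1. It formed its own segment in B91 and B96 at the lower penalty. Its median was above the flanks in all 11 tumours, by 0.03 to 0.21 (mean 0.11 ± 0.06, SD). In the C57BL/6J tumours it ran from 0.07 to 0.50 and in the mixed tumours from -0.46 to 0.11. The stretch lies within the called losses of A18 (-0.46) and A202 (-0.35) and the called gain of B76 (0.50). The other C57BL/6J tumours ran from 0.07 to 0.14 and the other mixed tumours from -0.03 to 0.11. The reference colour was -0.21 ± 0.07 in the stretch against -0.06 in the flanks, and the GC content was 35.0% against 36.7%. Whether these values move the ratio was not tested.

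**Figure D4:**
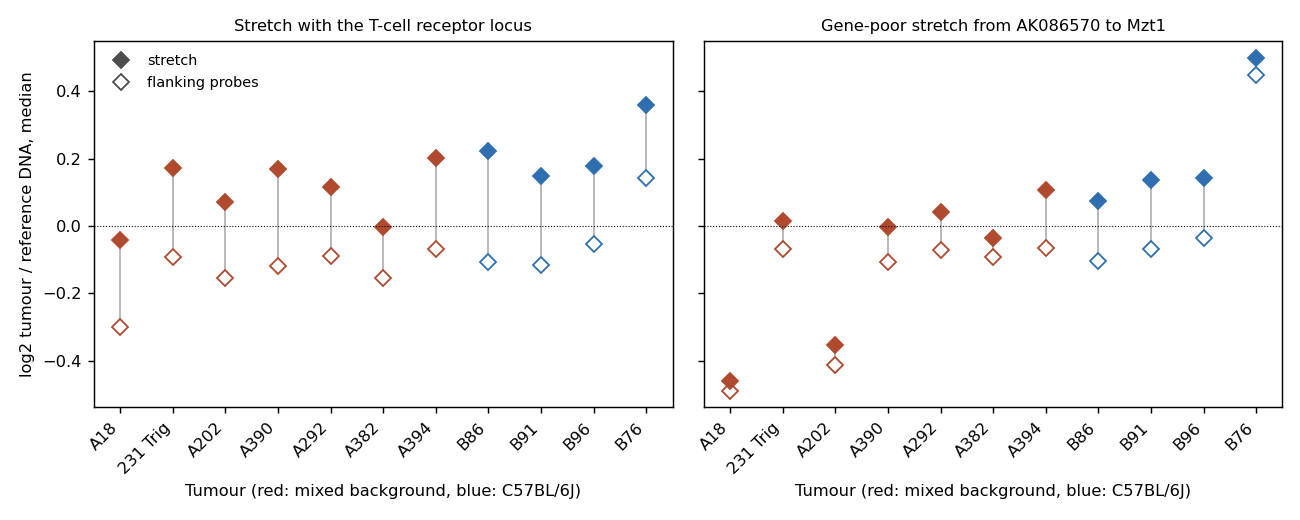
Median log2 ratio of 2 raised stretches (filled) and of their flanking probes (open) in each tumour, for the stretch with the T-cell receptor locus (left) and the gene-poor stretch from AK086570 to Mzt1 (right). The filled symbol lies above the open one in all 11 tumours in both panels.

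Single probes departed from their surroundings in a way that tumours shared. After each tumour's segment mean was removed, the probe values of arrays of different tumours correlated at a median r of 0.60 (range 0.30 to 0.92 over 65 pairs). The 2 arrays of A382 correlated at 0.91 over 1553 probes. These are descriptions across probes, and the pairs share the reference DNA, the dyes and the probes. A mean over tumours of a gene with 1 or 2 probes therefore holds this shared probe pattern as well as the tumours' copy number.

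Genes were tested as the mean log2 ratio over tumours against 0, with limma over 20004 autosomal genes, with p-values adjusted by Benjamini-Hochberg over all of them. To pass, a gene needed an adjusted p below 0.05 and an absolute mean of 0.2 or more. On chromosome 14, 227 of 741 genes fell (30.6%), against 15.5% of all autosomal genes. Only 28 rose (3.78%), against 18% of all. The median gene was at -0.11 on chromosome 14 and at -0.01 over all genes. Of the genes that fell, 117 had a single probe, as had 335 of the 741. Averaged over tumours, the segment mean was above -0.2 at all 227. Even at Anxa7, in the deep loss of A18, this average was only -0.16. The count of 227 therefore does not set the genes that fell apart from the rest of the chromosome.

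These counts depended on how far single probes were trusted and on which tumours were used. When each probe was replaced by the running median of 5 neighbours, 128 genes fell (7.95% of all autosomal genes did) and 5 rose (13.4% of all did), and 93 of the 227 were among the 128. The 5 that rose, named after their values were seen, were Olfr1511 and Dad1, which lie in the raised stretch with the T-cell receptor locus, and Ctsg, Gzme and Gzmg, proteases of immune cell granules. Without the slide of A18 and A202, 143 genes fell (19.3%, against 15.1% of all autosomal genes) and 43 rose (5.8%, against 18.7%). Without A18 and A202 alone 153 fell (20.6%, against 14.9%) and 42 rose (5.67%, against 18.1%). Without B76 281 fell (37.9%, against 15.9%). With the 4 C57BL/6J tumours alone 91 fell, which at 12.3% was a smaller share than the 15.3% of all autosomal genes, and 53 rose (7.15%, against 15.6%). The larger share of falling genes on chromosome 14 was therefore not seen in these 4 tumours on their own. They include B76 with its gain, whose chromosome 14 level was 0.22, against -0.09 in B86, -0.08 in B91 and -0.04 in B96. The part of B76 in this smaller share was not tested.

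The 4 lowest means were at single probes whose surroundings were not that low. AK016405 was at -1.06 ± 0.38 (SD, n = 11), from -1.85 in B86 to -0.34 in A382. Cma1, a mast cell chymase, was at -0.80 ± 0.30, Zfp219 at -0.70 ± 0.39 and Zfp503 at -0.60 ± 0.09. Zfp219 and Zfp503 encode zinc finger proteins. The 4 genes were below 0 in 11 of 11 tumours, yet the segments around them averaged -0.11 to -0.09. Zfp219 and Zfp503 also passed with the running median (-0.31 and -0.36), whereas AK016405 and Cma1 did not (-0.10 and -0.07).
Il17rd, a membrane protein that restrains fibroblast growth factor signalling, was at -0.57 ± 0.23 over 3 probes, whose own means ran from -1.32 to -0.06.
The highest mean was that of Pdhb, a subunit of pyruvate dehydrogenase, at 0.90 ± 0.40 on 1 probe. Lrit1 was at 0.62 ± 0.50, with 1 of its probes at a mean of 1.23 and the other at 0.01. Kctd9 was at 0.48 ± 0.35. With the running median Pdhb was at -0.06, Lrit1 at 0.03 and Kctd9 at -0.09, and none of the 3 passed.

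Among growth suppressors and chromatin genes, 4 of 17 measured fell, 0 rose and 13 did not pass, with a list median of -0.10. Over the whole chromosome 30.6% of genes fell and 3.78% rose, with a median of -0.11. Over all autosomal genes 15.5% fell and 18% rose, with a median of -0.01. With the running median 17.3% of chromosome 14 genes and 7.95% of all fell. No list was tested against these shares. The 4 that fell were Bnip3l, Dok2, Itm2b and Bin3. With the running median 2 of the 17 fell, and Dok2 (-0.14), Itm2b (-0.06) and Bin3 (-0.07) no longer passed. Bnip3l, a mitochondrial protein of mitophagy and cell death, fell by 0.38 and was -0.84 in A18, -0.26 in A202 and 0.15 in B76, with -0.55 to -0.33 in the other 8 (limma adjusted p = 0.000147). Dok2, an adaptor that restrains Ras signalling, fell by 0.23 (limma adjusted p = 0.0219) over 10 tumours, since its only probe was missing in B86. Its low values were those of A18 at -0.68 and A202 at -0.71, while B76 was at 0.26 and the other 7 lay at -0.22 to -0.10.

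Rb1 did not pass, with a mean of -0.09 ± 0.33 (SD, n = 11, limma adjusted p = 0.404), nor did it without B76, at -0.15 (limma adjusted p = 0.0790). Lats2 was at -0.67 in A18, -0.32 in A202 and 0.22 in B76, with -0.26 to -0.02 in the other 8, and did not pass (limma adjusted p = 0.0625). Bap1 was at -0.38 in A18, -0.35 in A202 and -0.04 in B76, with -0.33 to 0.03 in the other 8. Its mean of -0.20 had a limma adjusted p of 0.00121 but stayed just short of the size of 0.2. Fhit, which spans a fragile site, was at -0.33 in A202 and -0.03 in A18, with 0.02 to 0.22 in the other 8. Tnfrsf10b, a death receptor for the ligand TRAIL, was at -0.20 in A18, -0.17 in A202 and 0.68 in B76. Fhit and Tnfrsf10b had mean ratios of 0.08 and 0.09, and with the running median Tnfrsf10b turned to -0.21 and passed.

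**Figure D5:**
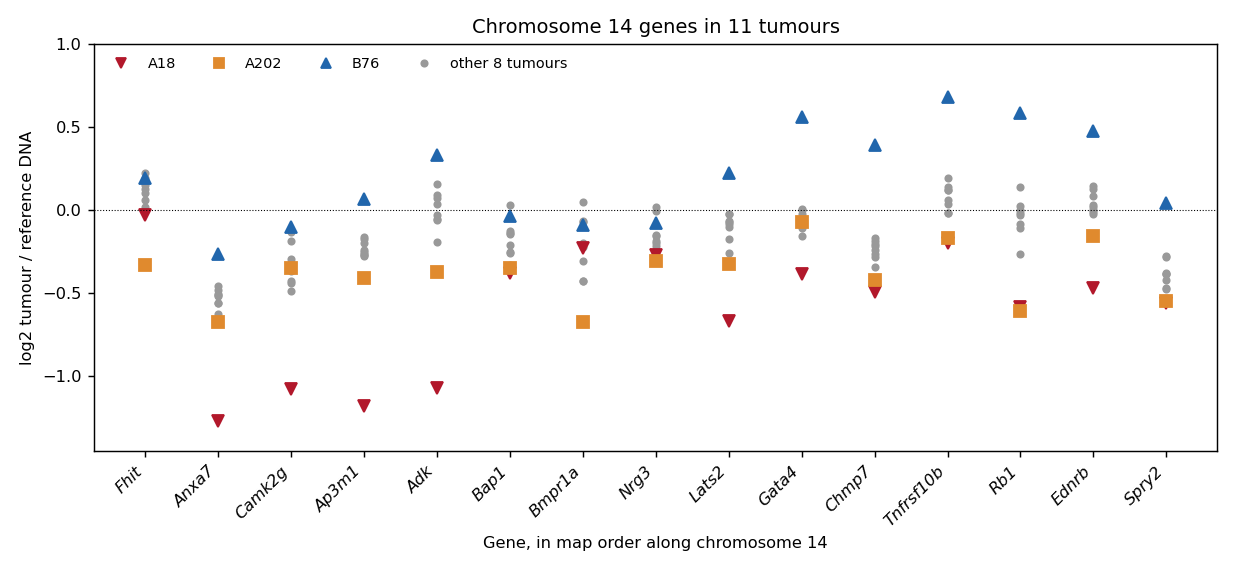
Log2 ratio of 15 chromosome 14 genes in map order, in A18 (red), A202 (orange), B76 (blue) and the other 8 tumours (grey). A18 is far below the rest from Anxa7 to Adk, A202 is lowest at Fhit and Bmpr1a, and A18 and A202 lie low and B76 high at Rb1.

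In the list of growth factor, Ras and Wnt signalling, 7 of 17 measured genes fell, 0 rose and 10 did not pass, with a median of -0.14. Beside it, 30.6% of chromosome 14 genes fell (median -0.11) and 15.5% of all autosomal genes (median -0.01). Spry2, an inhibitor of receptor tyrosine kinase and Ras signalling, fell by 0.38 (limma adjusted p = 1.27e-05). It was -0.56 in A18, -0.55 in A202 and 0.04 in B76, and -0.48 to -0.28 in the other 8, on 1 probe whose running median gave -0.06. Camk2g fell by 0.38, Stc1, a secreted glycoprotein, by 0.32 and Prkcd, a protein kinase C, by 0.30. Bmpr1a fell by 0.24, Tnfsf11, the ligand RANKL, by 0.23 and Bmp4, a bone morphogenetic protein, by 0.21. Of the 17, 2 fell with the running median. Gata4, a transcription factor of heart and endoderm, did not pass, at -0.39 in A18, -0.07 in A202 and 0.56 in B76.

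Among neural crest and neural genes 5 of 17 measured fell, 2 rose and 10 did not pass, with a median of -0.08. Of all chromosome 14 genes 30.6% fell and 3.78% rose, and of all autosomal genes 15.5% and 18%. Dpysl2, a protein of axon growth, fell by 0.30 and Pcdh8, a protocadherin, by 0.29. Dct, an enzyme of melanin synthesis made in melanocytes, fell by 0.28, Slitrk1 by 0.28 and Zic2 by 0.27. Nefl, the light neurofilament chain, rose by 0.27 on 1 probe and Zic5 by 0.27, and with the running median these were at -0.07 and -0.24. With it 2 of the 17 fell and 0 rose, and Dpysl2 (-0.05), Pcdh8 (-0.10), Slitrk1 (-0.12) and Dct (-0.20, just short of the size of 0.2) no longer passed. Ednrb, the endothelin receptor needed by neural crest cells, was at -0.47 in A18, -0.16 in A202 and 0.48 in B76, with -0.02 to 0.15 in the other 8, and did not pass.

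Of the cell cycle, mitosis and DNA repair genes 3 of 17 measured fell, 1 rose and 13 did not pass, with a median of -0.06. The shares were 30.6% fallen and 3.78% risen over chromosome 14, and 15.5% and 18% over all autosomal genes. Elf1, an ETS transcription factor, fell by 0.27 and was -1.08 in A18, -0.63 in A202 and 0.54 in B76. Klf12 fell by 0.23 and Ppp2r2a, a regulatory subunit of protein phosphatase 2A, by 0.22. Mzt1, a component of the gamma-tubulin complex, rose by 0.55, but its 4 probes averaged from -0.11 to 2.06, and with the running median it was at -0.01. With it 2 of the 17 fell and 0 rose, and Elf1 (-0.21) and Klf12 (-0.11) no longer passed.
Genes of families that vary in copy number between mice were chosen by the start of their symbols (olfactory receptors, mast cell proteases, granzymes and ribonucleases). Among these 39 genes 8 fell, 4 rose and 27 did not pass, with a median of -0.02. Over chromosome 14 30.6% fell and 3.78% rose, and over all autosomal genes 15.5% and 18%. The 39 include Rnaseh2b (-0.12, did not pass), taken in by its symbol alone. Gzmc fell by 0.50, Rnase10 by 0.50, Olfr750 by 0.38 and Mcpt4 by 0.36. Olfr1511, Gzme, Gzmn and Olfr731 rose by 0.27 to 0.33. With the running median 3 of the 39 fell and 3 rose, and Rnase10 (-0.05), Olfr750 (-0.09) and Mcpt4 (-0.08) no longer passed. Members of such families resemble each other, so a probe can report more than its own gene.

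Between the strain backgrounds, 0 of 741 chromosome 14 genes passed with limma, against 3 of 20004 higher (0.015%) and 0 lower (0%) in mixed tumours over all autosomes. At an unadjusted p under 0.05 there were 104 of 741 on chromosome 14 and 2050 of 20004 over all genes. The smallest adjusted p on chromosome 14 was 0.171. Of the 104, 101 were lower in mixed tumours, and the number in that direction over all genes is not given here. A18 and A202, with their called losses on chromosome 14, are mixed tumours, and B76, with its called gain, is a C57BL/6J tumour. The part of these tumours in the 101 was not tested. Pdhb, on its single probe, passed in 2 alternatives, at -0.86 ± 0.14 (SE) in mixed minus C57BL/6J tumours with another background correction (normexp, limma adjusted p = 0.024) and at -0.62 ± 0.08 (SE) without A18 and A202 (limma adjusted p = 0.0436). All tumours used, its difference was -0.64 (limma adjusted p = 0.171).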

How the data were processed

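The deposited values are log10 ratios of tumour over reference signal and spot intensities of both colours, made by the authors with Agilent Feature Extraction 9.5 on build mm9, per the file headers and the submitters' processing notes. The software had subtracted background and normalised the dyes, per the file headers, and the series table held the same ratios. Ratios were converted to log2, control spots dropped, spots marked as non-uniform or as outliers set to missing, spots of a probe averaged, and arrays centred on the autosomal median. Gene names came from the files, updated through RefSeq accessions (28951 of 29337 probes with one matched); no mm9 annotation was used, so exons and introns are not given. Segments were found by penalised least squares (penalty 40 noise variances per break, at least 5 probes, values clipped at 3 noise SD from a running median over 5 probes). The gene tests used limma 3.58.1 (R 4.3.3) with Benjamini-Hochberg adjustment, chromosomes with exact sign-flip and permutation tests, in Python 3.11.15. Scripts were tested on simulated data. All arrays share the reference DNA, whose spread the tests leave out, and p-values measure only the spread between these samples, whose origin in separate mice is not stated.

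The members and gene lists were chosen with earlier results of these data known. Named genes were 10 fixed genes, the 6 highest and 6 lowest passing means with 1 sign in at least 9 of 11 tumours, up to 4 per list, up to 3 per called segment under 10 Mb, and genes at breaks; other list members that passed, the remaining genes of the deep loss, and the raised stretches were named after their values were seen. Alternatives were other centrings, normexp and loess, filters, GC adjustment, single passages, slides and tumours left out, other penalties and thresholds, and, chosen after seeing the data, leaving out A18, A202 and B76 together and setting tumours against each other. A short stretch that became a loss segment in B91 at the lower break penalty is not reported here.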

Additional observations from a re-analysis of the deposited data

Results flagged for a closer look

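In 126 sets of values (1 per quantity and strain background), 26 had a tumour far from the others of its background. Chance gives about 1 in 20 independent sets, but these are not independent: genes were named for lying in the deep loss of A18, at breaks or at extreme means, and neighbouring genes repeat the same tumour, so the 26 are not set against that rate. Of these, 14 were A18, 8 B76, 2 A202 and 2 B86.

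A18 stood apart over its deep loss (-0.92) and at Fut11 (-1.28), Anxa7 (-1.27), Ap3m1 (-1.18), Camk2g (-1.08), Adk (-1.07) and AK170348 (-0.65) in or beside it. It also did so further along the chromosome, at Mcpt4 (-0.90), Kpna3 (-0.87), Bnip3l (-0.84), Ppp2r2a (-0.79), Stc1 (-0.79), Dpysl2 (-0.68) and Gata4 (-0.39), 7 genes of its distal segment.

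B76 stood apart in its distal minus proximal level (0.27) and in the gene-poor stretch (0.50). Among genes it did so at Mzt1 (1.30), Elf1 (0.54), Ppp2r2a (0.46), Capn7 (0.32), Dpysl2 (0.32) and Klf12 (0.21).

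A202 stood apart at AK155186 (-0.91) and Fhit (-0.33), and B86 at AK016405 (-1.85) and Lrit1 (0.96), the last being lower than the other 3 C57BL/6J tumours.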

How the results depend on the processing

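The count of tumours with a loss segment, 2 as reported, was 5 at a threshold of 0.1, 4 at a penalty of 20, 0 without slide 1, 0 without A18 and A202, 0 without A18, A202 and B76, and 1 to 2 when single tumours were left out. The chromosome's level passed without A18, A202 and B76 (-0.079), which were left out for their own values. Leaving out single tumours gave -0.13 (without B76) to -0.068. Distal minus proximal turned to 0.038 without slide 1 and to 0.027 without A18 and A202, and ran from -0.038 to 0.0090 with single tumours left out. The genes that fell numbered 91 (12.3%, below the 15.3% of all genes, where 30.6% had stood against 15.5%) and those that rose 53 with C57BL/6J tumours only, 128 (17.3% against 7.95%) and 5 with the running median, and 143 (19.3% against 15.1%) and 43 without slide 1. Between backgrounds 1 gene passed with normexp and 1 without A18 and A202. Dok2 (0.0015) and Bin3 (0.012) changed sign with C57BL/6J tumours only, and Tnfrsf10b (-0.21), Kctd9 (-0.092), Pdhb (-0.064) and Mzt1 (-0.013) with the running median. Why these values changed was not tested, beyond the fewer tumours and the smoothing over neighbours that the settings themselves bring. The strain difference in level kept its direction (-0.20 to -0.01) and did not pass under any of its 28 alternatives. The share of probes lost ran from 0% to 45.5%. Of 56 named genes 42 kept their direction, 13 their call (passed or not) and 7 both under all alternatives run. No paired analysis of the strain backgrounds was run, because the labels pair no tumour of 1 background with a tumour of the other.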
